A study of Danio rerio with 18 samples.

Results

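The genes described here encode subunits of the proteasome and its close partners in zebrafish, 43 gene IDs of the 33737 in the count tables. They were taken by symbol alone: every ID whose symbol, with case ignored, begins with PSMA, PSMB, PSMC or PSMD and a number. The proteasome is the barrel-shaped protease that degrades ubiquitin-tagged proteins. Its 20S core is built of rings of alpha subunits, which gate the entrance, and rings of beta subunits, some of which carry the protease sites. The 19S cap holds a ring of ATPases that unfold substrates, and non-ATPase subunits that bind ubiquitin and remove it. Dedicated chaperones assemble both parts, and the genes are known in yeast and mammals to be regulated together.

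RNA came from the trunk of embryos at 28 hours post-fertilization (hpf). The groups used here, of 2 samples each, were m6A immunoprecipitates (IP) of embryos labelled mettl3 morphant and of control embryos, the unselected mRNA of both (input), RNA bound to Ythdf2 (RIP) in embryos that received ythdf2-Flag mRNA, and endothelial cells labelled mettl3 morphant, ythdf2 morphant and control. N6-methyladenosine (m6A) is a mark on mRNA written by an enzyme that contains Mettl3 and read by Ythdf2, which promotes decay of the RNA it binds. Control groups are given as normal in the labels, which name no strain, control morpholino or separate clutches, so the p-values cover the spread between 2 samples of a label, which could be technical. A morphant is a transient knockdown by an injected antisense morpholino, not a mutant, and the RIP reads a tagged protein made from injected mRNA.

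Gene counts numbered 32.8 M to 78.3 M in the input and IP libraries, 7.90 M and 5.27 M in the RIP libraries, and 3.57 M to 4.75 M in the endothelial columns. The 2 columns of each endothelial group differed by little more than sampling noise (chi-square per degree of freedom 1.01 to 1.04, against 59.4 to 338 in the other groups). The chi-square test gave p = 0.173 for mettl3 morphant, 0.00402 for ythdf2 morphant and 0.00162 for control. The columns were therefore summed and counted as 1 sample, with no test between endothelial groups. METTL3 went against the label in replicate 2, at 15.7 and 48.2 counts per 1000000 gene counts (CPM) in inputs labelled mettl3 morphant and 35.8 and 19.6 CPM in inputs labelled control. The IP libraries showed the same, with 17.7 and 55.2 CPM under the mettl3 morphant label and 43.5 and 22.3 CPM under control. In the endothelial pools each targeted gene was highest under its own morphant label: METTL3 stood at 140.0 CPM in the mettl3 morphant pool and 19.5 CPM in the control pool, and YTHDF2 at 26.0 CPM in the ythdf2 morphant pool and 7.43 CPM in the control pool. The libraries are therefore named by their labels throughout, and a morpholino need not lower its transcript. Of 6 endothelial markers, all had counts in every pool, but their sum was 896 CPM in the mettl3 morphant pool, 944 CPM in the ythdf2 morphant pool and 262 CPM in the control pool. SOX7 made up 555 CPM of the sum in the ythdf2 morphant pool, where cdh5 was at 3.22 CPM against 25.7 CPM in control and KDR at 3.64 CPM against 13.3 CPM in control. In the mettl3 morphant pool cdh5 was at 26.9 CPM and KDR at 12.2 CPM, near control. The 4 skeletal muscle markers summed to 1227 CPM in the mettl3 morphant pool, 4312 CPM in the ythdf2 morphant pool and 16426 CPM in the control pool.

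The members fell into 9 alpha subunits of the 20S core, 7 constitutive beta subunits, 6 inducible or lineage-specific beta subunits, 7 ATPases and 10 non-ATPase subunits of the 19S cap, 3 assembly chaperones (PSMD5, PSMD9 and PSMD10) and PSMC3IP. PSMC3IP is no subunit: its product, Hop2, takes part in meiotic recombination and was taken in by its symbol. PSMA6 and PSMD11 each name a pair of gene IDs, called here PSMA6-A (ENSDARG00000013966), PSMA6-B (ENSDARG00000019398), PSMD11-A (ENSDARG00000005134) and PSMD11-B (ENSDARG00000060150). Reads that match both copies of such a pair, or PSMA2 and psma2a, or PSMC1 and psmc1b, could be split or dropped by the counting, so values within these pairs are uncertain. The RefSeq table lists psma7 as another name of the gene called PSMA8 here. PSMA1, PSMD2 and PSMD7, among other subunits, were not analysed here. Genome positions are not given, since the gene table used for names is of another assembly than the deposited coordinates.

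Proteasome genes took a larger share of the RNA in the endothelial pools than in the trunk libraries, and the smallest share in the Ythdf2 RIP. Members held 0.807% of gene counts in the mettl3 morphant endothelial pool, 0.639% in the ythdf2 morphant pool and 0.554% in the control pool. They held 0.0595% and 0.0225% in the RIP libraries. The IP libraries gave 0.267% and 0.347% under the mettl3 morphant label and 0.249% and 0.307% under control. The inputs gave 0.294% and 0.368% under the mettl3 morphant label and 0.271% and 0.346% under control. In each of these 4 groups replicate 2 was above replicate 1, so labels overlapped within IP and within input, and the gap between replicates was larger than that between labels.

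**Figure D1:**
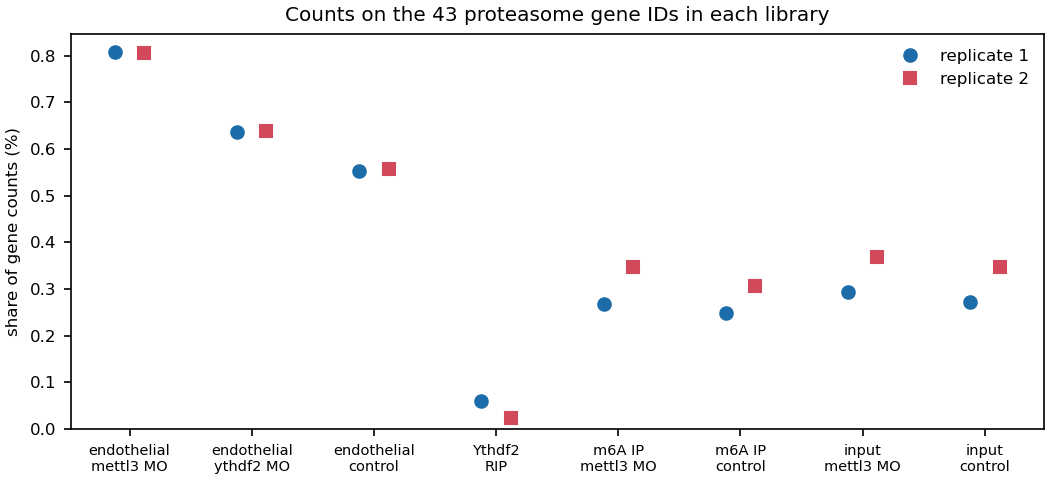
Share of all gene counts (percent, y axis) that fell on the 43 proteasome gene IDs, with 1 point for each deposited library or column. The endothelial columns lie between 0.552% and 0.808%, the inputs and IPs between 0.249% and 0.368%, and the RIP libraries at 0.0595% and 0.0225%.

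Most of the members with enough counts were more abundant, in CPM, in the control endothelial pool than in the control trunk inputs. Of these 37 members, 34 were higher in the pool than in both inputs, which is 91.9% of them against 47.7% of 11784 genes. The 37 include the inducible PSMB10, the assembly chaperones and PSMC3IP. PSMC3IP is no subunit and stood at log2 2.47 and 1.91 over the inputs. The median log2 ratio of the members was 1.02 over input 1 and 0.72 over input 2, while that of all genes was 0.22 and −0.05. PSMC2, an ATPase of the cap, stood at 269 CPM in the control endothelial pool and at 93.4 and 117 CPM in the control inputs. psma2a, an alpha subunit, stood at 146 CPM in the pool and at 45.5 and 67.2 CPM in the inputs. The exceptions were cap subunits: PSMD3 was at 38.6 CPM in the pool and 84.2 and 104 CPM in the inputs, PSMD11-B at 24.0 CPM in the pool and 31.2 and 40.8 CPM in the inputs, and PSMD14, the deubiquitinase of the cap, at 69.6 CPM in the pool and 70.5 and 90.3 CPM in the inputs. The endothelial markers summed to 262 CPM in the pool and to 60.2 and 79.6 CPM in the inputs, and the 4 epidermal markers to 2334 CPM in the pool and to 26112 and 32236 CPM in the inputs. Most of that sum was krt4, at 414 CPM in the pool and 23455 and 27827 CPM in the inputs, while krt8 was at 1612 CPM in the pool and 972 and 1269 CPM in the inputs. The muscle markers were higher in the pool, at 16426 CPM, than in the inputs, at 10063 and 11427 CPM. The part of these in the ratios was not tested. The library kinds and cell sources differ, the ratios have no test, and fewer cells of a type cannot be told apart from less RNA per cell in the trunk.

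**Figure D2:**
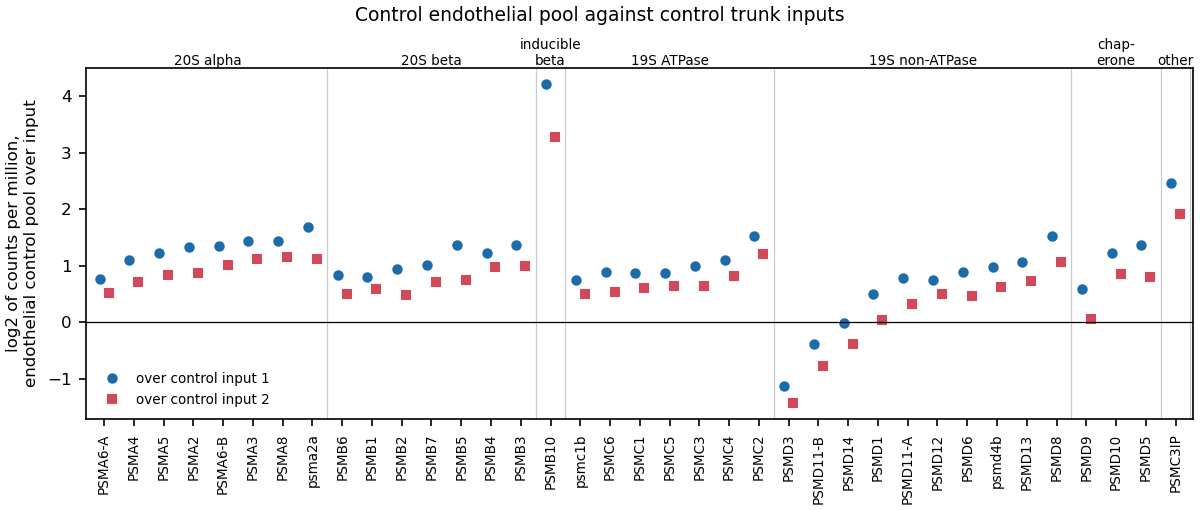
Log2 ratio of CPM in the control endothelial pool over each control trunk input (y axis), for the 37 members with enough counts, grouped by role. All but PSMD3, PSMD11-B and PSMD14 lie above 0 over both inputs, and PSMB10 lies highest at 4.21 and 3.27.

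The inducible beta subunits were almost absent. In mammals PSMB8, PSMB9 and PSMB10 replace the catalytic constitutive beta subunits to form the immunoproteasome, and PSMB11 is the beta subunit of the thymus. Fish carry further immune-type copies such as psmb12 and psmb13a. In the endothelial pools PSMB8, PSMB9, psmb12, psmb13a and psmb11b had 0 counts, which allows up to 0.380 CPM in the mettl3 morphant pool, 0.419 CPM in the ythdf2 morphant pool and 0.318 CPM in the control pool (3 counts of the pool's total, for counting error only). PSMB8 had 1 count in 1 mettl3 morphant IP library, 1 count in 1 RIP library and 0 elsewhere. PSMB9 reached 0.122 and 0.280 CPM in mettl3 morphant inputs and 0.192 and 0.323 CPM in control inputs. PSMB10 was the one with a clear level: 15.5 CPM in the mettl3 morphant endothelial pool, 14.8 CPM in the ythdf2 morphant pool and 18.1 CPM in the control pool, against 0.979 and 1.88 CPM in control inputs. Its ratio of the endothelial pool to the inputs was the highest among the 37 members with enough counts, log2 4.21 and 3.27. The alpha subunit copy psma6l, not among the 37, was at 1.17 CPM in the pool and 0.105 and 0.103 CPM in the inputs.

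The first comparison asked whether trunk mRNA levels differed between mettl3 morphant and control labels. Since METTL3 went against the label in replicate 2 of these inputs, this comparison need not measure the knockdown. No member was called of 38 tested, and none of 22561 genes was (0% background in each direction; edgeR quasi-likelihood test, Benjamini-Hochberg adjusted p below 0.05). No member had an unadjusted p below 0.05 either, and DESeq2 called 0 members. The median log2 fold of the members was 0.11, beside 0.01 for all genes, and 33 of 38 lay above 0. The share of all genes above 0 is not given here. Within replicate number 1 the members' median was 0.14 and within number 2 it was 0.04. Libraries of the labels did not overlap for 16 members higher in the morphant (42.1% of members, against a background of 13%) and for 1 lower (background 13.1%).

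The alpha subunit psma2a had the highest fold, at 74.5 and 61.1 TMM-scaled CPM in mettl3 morphant inputs and 49.6 and 61.8 in control inputs, a log2 fold of 0.28 ± 0.16 (SE). Its groups overlapped. PSMB3, a structural beta subunit, was at 79.8 and 74.4 in mettl3 morphant inputs and 63.6 and 69.2 in control inputs, a log2 fold of 0.22 ± 0.12 without overlap. PSMB2, which is also structural, gave 94.3 and 63.3 in mettl3 morphant inputs and 63.7 and 74.3 in control inputs (log2 0.19 ± 0.21), so its 2 replicate numbers pointed opposite ways. At the low end were the sparse PSMB10 (log2 −0.47 ± 0.38) and PSMB9 (−0.34 ± 0.62), and PSMD3, a scaffold subunit of the cap, at 85.4 and 85.7 in mettl3 morphant inputs and 91.8 and 95.5 in control inputs (−0.13 ± 0.11). In the fit all 15 tested alpha and constitutive beta members lay above 0, between 0.03 and 0.28, and none of these values passed the test. Within replicate number 1 PSMB1 (−0.015) and PSMB5 (−0.020) lay below 0. Within number 2 PSMB2 (−0.23), psma2a (−0.017), PSMA4 (−0.007) and PSMA3 (−0.0006) did.

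The second comparison was the m6A IP over input, which measures how far the antibody recovered a transcript relative to its abundance. More proteasome transcripts were under-recovered than over-recovered. Among 39 members tested in mettl3 morphant embryos, 12 fell and 3 rose in IP over input, against backgrounds of 13.5% and 13.3% of 23163 genes. In control embryos 16 fell and 1 rose, against backgrounds of 14.8% and 13.9%. The members that fell were 30.8% of those tested under the mettl3 morphant label and 41.0% under control. The median log2 IP over input was −0.26 under the mettl3 morphant label and −0.33 under control, beside −0.02 and −0.03 for all genes. With the replicate number as a block, 2 members rose in control embryos. Without 1 library, the members that fell under the mettl3 morphant label were 7 (without morphant input replicate 1) or 6 (without morphant input replicate 2). Those that fell under control were 9 without control input replicate 1, 4 without control input replicate 2, 8 without control IP replicate 1 and 9 without control IP replicate 2. With scaling by total gene counts, 3 members fell and 0 rose in mettl3 morphant embryos, and 3 fell and 1 rose in control embryos. The shares of all genes under these alternatives are not given here.

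IP libraries lay wholly below input libraries for 20 members under the mettl3 morphant label and 26 under control, against 32.3% and 36.1% of all genes. They lay wholly above for 5 and 6 members, against 31% and 33.6% of all genes. The order of the members was alike under both labels, with Pearson's r of 0.90 and Spearman's rho of 0.92 over 39 genes, given as a description because genes share libraries and are not replicates. The same 12 members fell under both labels, and PSMC3IP rose under both. Both contrasts come from 1 fit, and the share of all genes called under both labels is not given here.

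Among the alpha subunits, 5 of 9 fell under each label, with a median of −0.61 under the mettl3 morphant label and −0.71 under control. Of all genes 13.5% fell under the mettl3 morphant label and 14.8% under control. PSMA6-A stood at 21.7 and 23.1 TMM-scaled CPM in mettl3 morphant IPs and 57.1 and 48.9 in their inputs, a log2 difference of −1.24 ± 0.14 (adjusted p = 0.00197, edgeR). In control embryos it stood at 18.6 and 16.9 in IPs and 47.4 and 47.7 in inputs (−1.42 ± 0.14, adjusted p = 0.00146, edgeR). Every IP library was below every input library. PSMA6-B, the other copy, had smaller differences of −0.69 ± 0.17 under the mettl3 morphant label and −0.81 ± 0.17 under control.

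PSMA5, another alpha subunit, stood at 63.8 and 53.9 in mettl3 morphant IPs and 112 and 115 in their inputs, and at 54.1 and 49.8 in control IPs and 96.7 and 107 in their inputs. Its log2 differences were −0.95 ± 0.14 under the mettl3 morphant label and −0.97 ± 0.14 under control (adjusted p = 0.00305 and 0.00248, edgeR). PSMA8 was the one alpha member above 0 under both labels, at 0.17 ± 0.15 and 0.24 ± 0.15, and did not pass the test.

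Of the 7 constitutive beta subunits, 1 fell under the mettl3 morphant label and 3 under control. The shares of all genes that fell were 13.5% and 14.8%, so the 1 under the mettl3 morphant label is near background. PSMB3 fell under both, by 0.88 ± 0.23 under the mettl3 morphant label and by 0.89 ± 0.23 under control on the log2 scale. Its IP values were 32.7 and 53.5 under the mettl3 morphant label and 32.1 and 41.9 under control, below all inputs, which ranged from 65.5 to 82.1. The catalytic PSMB5, which cuts after hydrophobic residues, was at 0.29 ± 0.24 under the mettl3 morphant label and 0.23 ± 0.24 under control. PSMB7, which cuts after basic residues, was at −0.55 ± 0.20 (adjusted p = 0.0684, edgeR) under the mettl3 morphant label and −0.62 ± 0.20 (adjusted p = 0.0444) under control. The inducible PSMB9 and PSMB10 did not pass under either label: PSMB9 gave −0.40 ± 0.64 under the mettl3 morphant label and −1.41 ± 0.69 under control, PSMB10 −0.17 ± 0.41 and −0.70 ± 0.41. PSMB9 rests on 2 to 22 counts per library.

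In the 19S cap, 4 of 17 members fell under the mettl3 morphant label and 6 under control, while 2 rose under the mettl3 morphant label and 0 under control. Beside these, 13.5% and 14.8% of all genes fell and 13.3% and 13.9% rose, so the 2 that rose are no excess. Of the ATPases, PSMC4 fell under both labels (−0.49 ± 0.13 under the mettl3 morphant label and −0.52 ± 0.13 under control). The deubiquitinase PSMD14 stood at 52.0 and 55.4 in mettl3 morphant IPs and 83.5 and 88.9 in their inputs, and at 41.7 and 46.1 in control IPs and 79.2 and 85.8 in their inputs. Its differences were −0.68 ± 0.13 under the mettl3 morphant label and −0.91 ± 0.13 under control. Not all cap genes behaved so. PSMD3 stood at 110 and 133 in mettl3 morphant IPs and 87.9 and 88.4 in their inputs (0.46 ± 0.14, adjusted p = 0.0383, edgeR), but in control embryos at 111 and 98.8 in IPs and 94.6 and 98.5 in inputs (0.12 ± 0.14, adjusted p = 0.556). The change between labels was 0.34 ± 0.20 for PSMD3 and did not pass its own test (adjusted p = 1, edgeR interaction).

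PSMD11-B, a clamp subunit of the cap, rose under the mettl3 morphant label (0.44 ± 0.13, adjusted p = 0.0358, edgeR) and missed the threshold under control (0.39 ± 0.13, adjusted p = 0.0551). Its other copy, PSMD11-A, lay below 0 under both (−0.26 ± 0.15 and −0.33 ± 0.15) without passing. Both calls under the mettl3 morphant label were lost without either control input, without either morphant input or without morphant IP replicate 2, and that of PSMD11-B also without control IP replicate 2 (adjusted p between 0.0510 and 0.200). PSMD1, the large scaffold of the cap, was at 0.39 ± 0.17 under the mettl3 morphant label and 0.27 ± 0.17 under control, neither past the threshold.

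Of the assembly chaperones for the ATPase ring, PSMD10 and PSMD9 fell under both labels and PSMD5 did not pass under either. PSMD10, also known as gankyrin, stood at 4.59 and 4.61 TMM-scaled CPM in mettl3 morphant IPs and 8.81 and 10.2 in their inputs, and at 3.08 and 3.19 in control IPs and 9.42 and 10.3 in their inputs. Its log2 differences were −1.05 ± 0.17 (adjusted p = 0.00401, edgeR) under the mettl3 morphant label and −1.66 ± 0.18 (adjusted p = 0.00146) under control. PSMD9 fell by 0.59 ± 0.16 under the mettl3 morphant label and by 0.56 ± 0.16 under control. PSMD5 gave −0.36 ± 0.22 under the mettl3 morphant label and −0.50 ± 0.22 under control. PSMC3IP, the meiotic protein gene, was the member that rose under both: it stood at 12.3 and 10.7 in mettl3 morphant IPs and 7.18 and 6.47 in their inputs (0.76 ± 0.18, adjusted p = 0.0172, edgeR), and at 9.98 and 11.8 in control IPs and 5.38 and 6.69 in their inputs (0.85 ± 0.18, adjusted p = 0.0101). Its control call was lost without control input replicate 1 (adjusted p = 0.0912) and without control IP replicate 2 (0.0571). Its mettl3 morphant call was lost without morphant input replicate 2 (adjusted p = 0.0908), without morphant IP replicate 1 (0.0613) and with total-count scaling (0.0819).

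**Figure D3:**
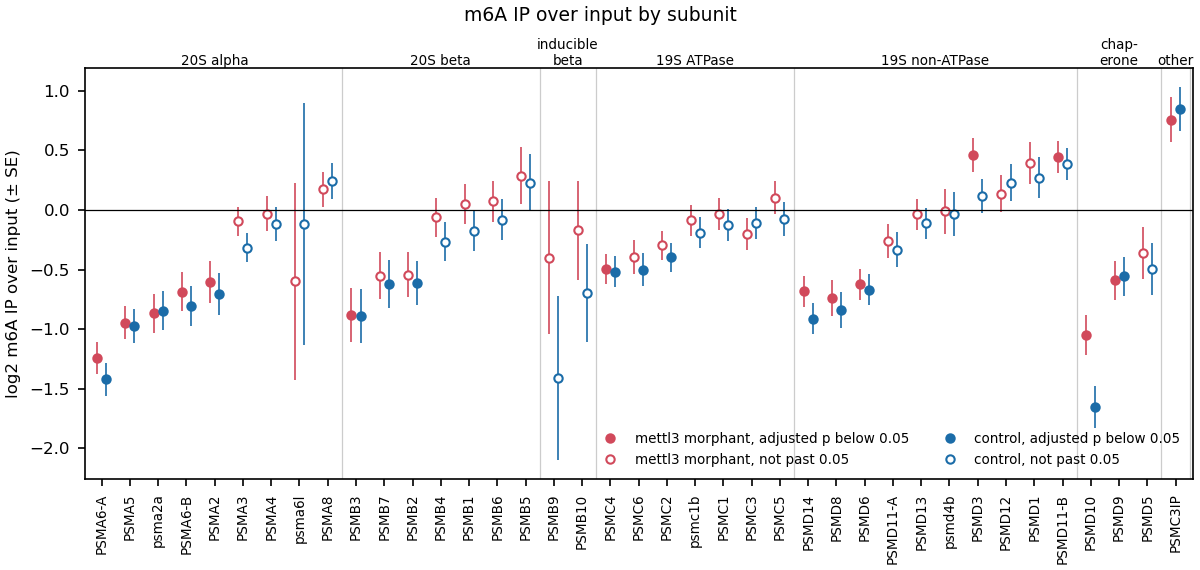
Log2 m6A IP over input with its SE (y axis) for the 39 tested members, mettl3 morphant left and control right of each position, grouped by role. Filled points passed the threshold: 12 members below 0 and 3 above 0 in the mettl3 morphant label, and 16 below and 1 above in control, with PSMA6-A and PSMD10 lowest and PSMC3IP highest under both labels.

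The next contrast was the change of IP over input between labels. METTL3 went against the label in replicate 2 of inputs and IPs, so this contrast compares labels and need not measure the knockdown. None of 39 members was called, nor was any of 23163 genes (0% background in each direction, edgeR interaction), and DESeq2 called 0 members. The median change of the members, mettl3 morphant minus control, was 0.09, beside 0.01 for all genes. It was −0.04 within replicate number 1 and 0.19 within number 2. PSMD10 alone had an unadjusted p below 0.05 (log2 change 0.61 ± 0.24, unadjusted p = 0.0331, adjusted p = 1, edgeR). The sparse PSMB9 (1.01 ± 0.94) and PSMB10 (0.53 ± 0.58) completed the high end, and psma6l (−0.48 ± 1.33), PSMD12 (−0.09 ± 0.22) and PSMC3 (−0.09 ± 0.19) the low end.

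The third comparison set RNA bound to Ythdf2-Flag against control input, a contrast of library kinds that differ in preparation. Proteasome transcripts were scarce in the RIP. Of 37 members tested, 4 fell and 0 rose (edgeR), against backgrounds of 5.67% and 6.31% of 21005 genes. DESeq2 called 12 lower and 1 higher, for which no share of all genes is given here. The members' median was −1.44, beside −0.19 for all genes. With scaling by total gene counts both moved together, to −3.40 and −2.11. The members lay 1.25 below the median gene with one scaling and 1.29 below with the other, but a change of scaling moves all genes nearly alike. The fall was larger in replicate number 2, with a median of −2.71, than in number 1, with −0.80. RIP libraries lay wholly below the inputs for 28 members (75.7%, against 40.3% of all genes) and wholly above for 1 (against 30% of all genes).

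The count of 4 was not stable. It moved when any 1 library was left out, but such a fit leaves 1 sample in a group and takes the spread from the other group. RIP replicates 1 and 2 held 4705 and 1184 counts on all members together, so single genes rest on few reads. The share of reads outside annotated genes was 42.9% and 43.8% in the RIP libraries and 12.5% to 13.5% in the inputs; the part of this in the result was not tested.

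The lowest fitted value was that of PSMA5, an alpha subunit, at 9.25 and 1.77 TMM-scaled CPM in the RIP libraries and 48.2 and 53.5 in control inputs (log2 −3.16 ± 0.72, adjusted p = 0.0417, edgeR). Its fold was −4.98 without RIP replicate 1 and −2.52 without RIP replicate 2. PSMD10 had 4 and 0 counts in the RIP libraries and 480 and 739 in control inputs (−3.06 ± 0.70, adjusted p = 0.0419). Its fold was −2.32 without RIP replicate 2, and without RIP replicate 1 it has no usable value because the library left holds 0 counts. The alpha subunit psma2a was at 6.68 and 3.55 in the RIP libraries and 25.5 and 31.7 in control inputs (−2.46 ± 0.51, adjusted p = 0.0374). PSMD14 was at 13.6 and 6.38 in the RIP libraries and 39.5 and 42.7 in control inputs (−2.02 ± 0.52, adjusted p = 0.0494). In each of these 4 genes both RIP libraries lay below both inputs. PSMA6-A, at 5.65 and 0.355 in the RIP libraries and 23.7 and 23.7 in control inputs, gave −2.89 ± 0.81 and missed the threshold (adjusted p = 0.0579).

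By role, the alpha subunits had a median of −1.92, the constitutive beta subunits −1.81, the ATPases −0.99 and the non-ATPase subunits −1.02. All 15 tested core members lay below 0. The sparse PSMB10, with 3 and 2 RIP counts, gave 0.04 ± 0.72. The ATPase psmc1b was close to 0 in the fit (−0.18 ± 0.75) with libraries that pointed opposite ways, at 42.1 and 6.74 in the RIP libraries and 27.8 and 28.0 in control inputs.

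PSMD1 departed from the rest. It stood at 268 and 140 TMM-scaled CPM in the RIP libraries and 82.9 and 95.02 in control inputs, the one member whose RIP libraries were both above the inputs. Its log2 fold was 1.20 ± 0.59 and did not pass with edgeR (adjusted p = 0.189), while DESeq2 gave 1.26 (adjusted p = 0.0347). It was 0.52 without RIP replicate 1 and 1.53 without RIP replicate 2, each a fit with 1 RIP library left. Without TMM scaling it was 132 and 75.1 CPM in the RIP libraries and 148 and 201 CPM in control inputs, which turned the fold to −0.75. Within the member set no scaling is needed: PSMD1 made up 22.2% and 33.4% of the members' counts in the RIP libraries, against 5.45% and 5.81% in control inputs. In the m6A libraries it made up 7.03% and 8.10% of the mettl3 morphant IPs and 7.68% and 8.58% of the control IPs.

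**Figure D4:**
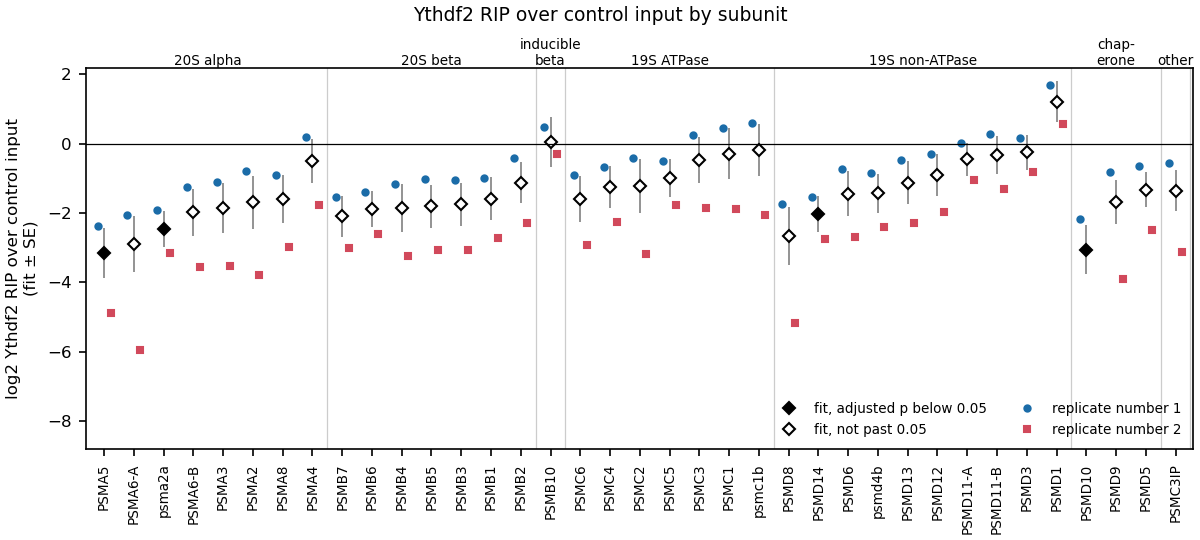
Log2 Ythdf2 RIP over control input (y axis) for the 37 tested members, as the fit with its SE (diamonds, filled where the adjusted p was below 0.05) and within each replicate number (circles and squares), grouped by role. PSMD1 lies above 0 in both numbers, and the point of PSMD10 in number 2 is not drawn because its RIP library held 0 counts.

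The last comparison concerned endothelial cells of mettl3 morphant and ythdf2 morphant embryos against control, each 1 pool, so folds carry a 95% interval for counting error only and no test. Under the mettl3 morphant label the members lay above the typical gene, with a median log2 fold of 0.21, beside −0.15 for all genes. Scaling by total gene counts gave 0.48 and 0.12. It shifts all folds between 2 pools alike, so the distance of 0.36 could not change. With a filter of 100 counts the median was 0.20 for the members and −0.02 for all genes. Of 37 members, 22 had an interval above 0 and 6 had one below. The share of all genes with such intervals is not given here, and genes with many counts have narrow intervals. At least 1.5-fold higher were 5 members (13.5%, against a background of 29.4% of 13507 genes) and at least 1.5-fold lower 2 (5.41%, against a background of 39.1%).

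The constitutive beta subunits PSMB5 and PSMB1 led. PSMB5 stood at 384 and 401 CPM in the mettl3 morphant columns and 167 and 192 CPM in the control columns, a fold of 1.81 (log2 0.86, interval 0.77 to 0.95). PSMB1 stood at 332 and 335 CPM in the mettl3 morphant columns and 165 and 161 CPM in the control columns, a fold of 1.70 (log2 0.76, interval 0.67 to 0.85). The alpha subunit PSMA5 was at 417 and 399 CPM in the mettl3 morphant columns and 194 and 208 CPM in the control columns, a fold of 1.68. The columns of the pools did not overlap in these genes. Columns of a pool differed by little more than sampling noise, so this is no replication. PSMD9 (1.63-fold) and PSMD11-A (1.59-fold) were the other members past 1.5-fold.

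Of the 7 ATPases, 5 lay between log2 0.29 and 0.53 and the median was 0.46, but PSMC5 was at −0.50 (interval −0.61 to −0.40) and psmc1b at −0.09. PSMD5, the chaperone of the ATPase ring, was the lowest member: 8.64 and 5.56 CPM in the mettl3 morphant columns and 36.0 and 38.3 CPM in the control columns, 0.159 times the control (log2 −2.66, interval −3.09 to −2.25). PSMC3IP was at 13.5 and 16.4 CPM in the mettl3 morphant columns and 25.1 and 28.0 CPM in the control columns, 0.468 times the control. The inducible PSMB10 was at 0.707 times the control (log2 −0.50, interval −0.85 to −0.16).

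Under the ythdf2 morphant label, which shares the control pool, members lay on both sides of 0. The median log2 fold was −0.08, beside −0.18 for all genes, and with scaling by total gene counts it turned to 0.11, beside 0.01. With a filter of 100 counts it was −0.054, beside −0.059 for all genes. Intervals lay above 0 for 15 members and below 0 for 17, again without a share of all genes. At least 1.5-fold higher were 4 members (background 30.6% of 13617 genes), and at least 1.5-fold lower were 6 (background 39.8%).

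The chaperone PSMD9 was highest, at 79.1 and 71.9 CPM in the ythdf2 morphant columns and 24.8 and 24.0 CPM in the control columns, a fold of 2.71 (log2 1.44, interval 1.21 to 1.67). PSMB3 was at 328 and 327 CPM in the ythdf2 morphant columns and 154 and 146 CPM in the control columns, a fold of 1.91. PSMD11-B was at 51.6 and 52.7 CPM in the ythdf2 morphant columns and 23.8 and 24.2 CPM in the control columns, also 1.91-fold, whereas its other copy PSMD11-A was at 1.04-fold. PSMB1 was 1.61-fold higher.

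Lower members included PSMC3IP at 6.45 and 6.69 CPM in the ythdf2 morphant columns and 25.1 and 28.0 CPM in the control columns, 0.217 times the control. The ATPase psmc1b was at 40.1 and 40.7 CPM in the ythdf2 morphant columns and 85.7 and 81.5 CPM in the control columns, 0.424 times the control, while PSMC1, its near copy, was at 0.856 times. PSMA6-A was at 35.1 and 41.3 CPM in the ythdf2 morphant columns and 69.9 and 74.3 CPM in the control columns, 0.464 times, while PSMA6-B was at 1.34-fold. PSMD5 (0.465 times) and the cap subunits PSMD13 (0.588 times) and PSMD8 (0.615 times) were the others. PSMB10 was at 0.716 times the control.

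**Figure D5:**
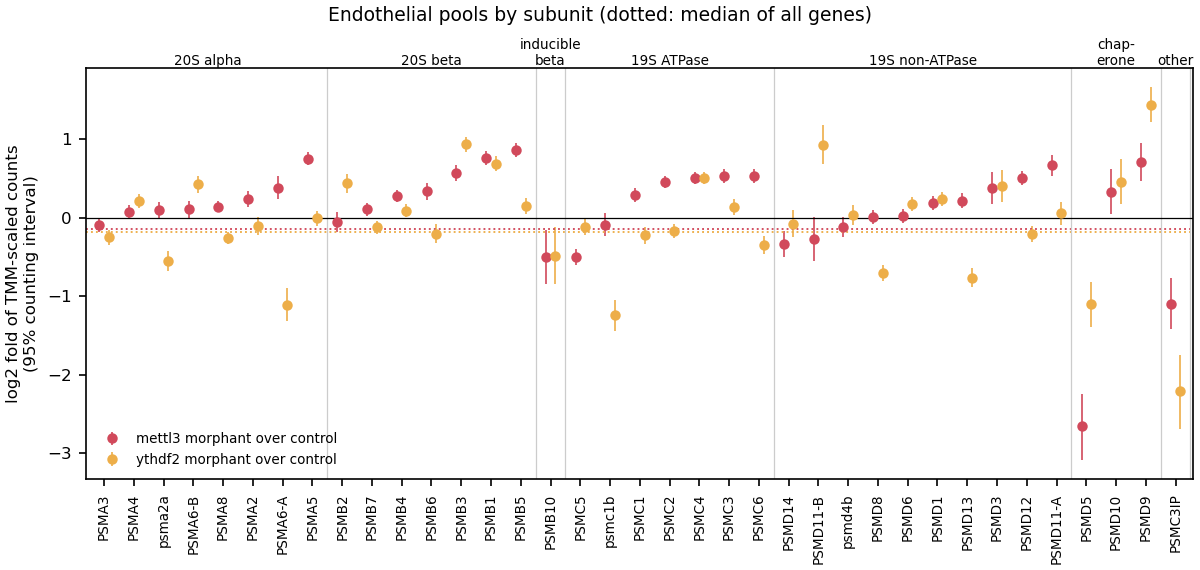
Log2 fold of TMM-scaled counts over the control endothelial pool with the 95% counting interval (y axis), mettl3 morphant left and ythdf2 morphant right of each position, for 37 members grouped by role. Dotted lines mark the medians of all genes, −0.15 and −0.18, and PSMD5 in the mettl3 morphant and PSMC3IP in the ythdf2 morphant lie lowest.

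A direct ratio of the ythdf2 morphant to the mettl3 morphant pool has no control counts in it. Its gene filter and TMM scaling were still set over all 3 pools, control included. It had a median of −0.18 over the members, beside 0.03 for all genes, with 3 members at least 1.5-fold higher (background 36.2% of 12950 genes) and 12 at least 1.5-fold lower (background 34.8%). PSMD5 was 2.93-fold and PSMD11-B 2.30-fold higher in the ythdf2 morphant pool, and PSMA6-A was at 0.356 times the mettl3 morphant pool. PSMB5, at 231 and 223 CPM in the ythdf2 morphant columns and 384 and 401 CPM in the mettl3 morphant columns, was at 0.611 times. Muscle markers differed between all 3 pools by the sums given above. Epidermal markers summed to 2330 CPM in the mettl3 morphant pool, 5154 CPM in the ythdf2 morphant pool and 2334 CPM in the control pool. Single epidermal genes went different ways. In the same order of pools, krt8 was at 2076, 4461 and 1612 CPM and krt5 at 107, 325 and 136 CPM. By contrast, krt4 was at 118, 303 and 414 CPM and epcam at 28.1, 65.6 and 172 CPM. Neural markers summed to 477 CPM in the mettl3 morphant pool, 199 CPM in the ythdf2 morphant pool and 397 CPM in the control pool. GFAP was at 197 CPM in the mettl3 morphant pool and 95.1 CPM in control, while NEUROD1 was at 29.4 and 70.3 CPM. Erythroid markers summed to 50.7 CPM in the mettl3 morphant pool, 18.7 CPM in the ythdf2 morphant pool and 184 CPM in the control pool. Myeloid markers summed to 66.8 CPM in the mettl3 morphant pool, 57.1 CPM in the ythdf2 morphant pool and 28.8 CPM in the control pool. Most of the myeloid sum was LCP1, at 53.1, 50.9 and 17.6 CPM in that order, while CORO1A was at 13.7, 6.01 and 10.8 CPM. The part of these cell types in the members' folds was not tested.

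Other genes of the pathway were read from lists of assembly chaperones, activators, ubiquitin shuttles, transcription regulators, ubiquitin genes and the antigen path, 38 of 55 symbols matched to 40 IDs. In the inputs 0 of 39 tested IDs were called. In IP over input 2 rose and 7 fell under the mettl3 morphant label, and 1 rose and 10 fell under control, with medians of −0.20 and −0.29. The shares of all genes were 13.3% higher and 13.5% lower under the mettl3 morphant label, and 13.9% higher and 14.8% lower under control. POMP, the maturation factor of the core, fell by 1.13 ± 0.25 under the mettl3 morphant label and by 1.23 ± 0.25 under control. The unfoldase cofactor UFD1 gave −0.59 ± 0.13 and −0.79 ± 0.13, and the ring-building chaperone PSMG2 −0.59 ± 0.17 and −0.66 ± 0.17. nfe2l1b, whose mammalian counterpart drives proteasome gene transcription, rose under both, by 0.56 ± 0.14 and 0.64 ± 0.14.

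In the RIP 5 of 37 tested pathway IDs fell and 0 rose, against 5.67% and 6.31% of all genes. Among them were POMP (−2.71 ± 0.61), PSMG2 (−2.19 ± 0.50), 1 of 2 IDs of the CCAAT-binding factor gene NFYA (ENSDARG00000042004, −2.07 ± 0.47; the other, ENSDARG00000001621, gave −0.87 ± 0.40 and did not pass) and b2m, the light chain of class I antigen molecules, with 0 counts in both RIP libraries and 145 and 211 in control inputs. These RIP values rest on few reads: 28 and 6 counts for POMP, 8 and 2 for PSMG2, and 27 and 12 for the NFYA ID that fell. In the endothelial pools the core chaperones POMP and PSMG2 were higher under the mettl3 morphant label, at log2 0.88 (interval 0.72 to 1.05) and 0.94 (0.74 to 1.15). Under the ythdf2 morphant label POMP was at 0.71 (0.54 to 0.88) and PSMG2 at 0.44 (0.22 to 0.67). Of 38 IDs with enough counts, 15 were at least 1.5-fold higher and 9 lower under the mettl3 morphant label, and of 37, 8 and 8 under the ythdf2 morphant label. The list of ubiquitin shuttles and the unfoldase had a median log2 fold of −0.47 under the mettl3 morphant label. Of its 8 IDs, 1 was higher and 3 were lower by that threshold. Of all genes 29.4% were higher and 39.1% lower under the mettl3 morphant label, and 30.6% higher and 39.8% lower under the ythdf2 morphant label.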

How the data were processed

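Per the submitters' processing notes, the authors mapped reads with TopHat2 2.0.9 and deposited raw counts per gene made with HTSeq (0.5.3p9 where a version is given). The sources used here give neither annotation release nor strand setting. Peak, miCLIP and RIP region lists were not used here. Read length was 151 bp in replicate 1 of the input and IP libraries and 101 bp in the others, per the labels' protocols.

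The members, roles, pathway lists and tests were chosen with earlier results of these data known. Named are the 3 highest and 3 lowest members of each fitted comparison and of each endothelial morphant pool over control. Also named are members called where there are 10 or fewer, the inducible beta members, and a few others chosen after their values were seen. Members named in the direct ratio of the morphant pools and in the ratio of endothelial pool to trunk were not picked by this rule. Counts of all genes were fitted with edgeR 4.0.16 (TMM, filterByExpr, robust quasi-likelihood test) in R 4.3.3: inputs in a fit of 4 libraries, IP over input in 1 fit of 8, RIP with control inputs in a fit of 4. p-values were adjusted over all genes tested, threshold 0.05. The SE printed after ± was derived from the test, as the absolute log2 fold over the square root of its F statistic. DESeq2 1.42.0 was an alternative. TMM-scaled CPM depend on the fit. Values within a replicate number are log2 CPM with a prior count of 2. Endothelial columns were summed, genes with at least 20 counts in 1 pool were kept, and folds have 95% exact binomial intervals. Intervals and floors cover counting error only. The scripts were tested on simulated data.

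Replicate numbers of the MeRIP libraries mark a read length, per the labels' protocols, and same-numbered libraries deviated together (r of 0.138 to 0.448 over genes in 6 pairs of groups). Motif and site searches planned for these genes were not run. The values of 1 pathway gene are not reported here.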

Additional observations from a re-analysis of the deposited data

Results flagged for a closer look

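For 8 members the mettl3 morphant over control log2 fold in the endothelial pools had the opposite direction to both replicate numbers of the trunk inputs, and the difference was not tested. For 3 of them, PSMD11-B (−0.27), psmd4b (−0.12) and psmc1b (−0.09), the counting interval of the endothelial fold included 0. For the 5 others it did not. Scaling by total gene counts raises all folds between these pools alike, so the positive folds of these 5 could not turn, and their negative folds kept the direction. The interval of PSMD14, −0.51 to −0.17 with TMM scaling, then includes 0. The folds of psmd4b and psmc1b then turn positive, so the count of 8 holds for TMM scaling only. The share of all genes with opposite directions is not given here. PSMC5, an ATPase of the cap, was at −0.50 in the pools and at 0.07 and 0.09 in the inputs. PSMD14, the cap deubiquitinase, was at −0.34 in the pools and at 0.08 and 0.05 in the inputs. PSMD1, the cap scaffold, was at 0.18 in the pools and at −0.07 and −0.02 in the inputs. The chaperone PSMD10 was at 0.33 in the pools and at −0.09 and −0.01 in the inputs. PSMD3 was at 0.37 in the pools and at −0.10 and −0.16 in the inputs. With scaling by total gene counts the pools gave −0.23 for PSMC5, −0.07 for PSMD14, 0.45 for PSMD1, 0.60 for PSMD10 and 0.64 for PSMD3. None of the input folds passed its test.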

How the results depend on the processing

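The counts of members called depended on scaling and on single libraries, and where no value shows it the cause was not tested. The share of all genes called is not given beside the counts under alternatives. These counts therefore show how the calls moved and not how members differ from other genes. In control IP over input the count higher was 2 with DESeq2, 2 with the replicate block and 0 to 1 without 1 library. The count lower was 3 with total-count scaling and 4 to 17 without 1 library. In mettl3 morphant IP over input the count higher was 0 with total-count scaling and 0 to 3 without 1 library. The count lower was 3 with total-count scaling and 6 to 12 without 1 library. The block changed no other count of calls in the IP or input comparisons by over 1.5 times. In the RIP the count higher was 1 with DESeq2, and the counts higher and lower both moved in fits with 1 RIP library left. The count lower was 36 with total-count scaling, 12 with DESeq2, 18 with no filter on low counts, 2 against morphant inputs and 0 to 35 without 1 library. RIP and control inputs share only a number (r of −0.02 between deviations), and the replicate block gave 14 lower. The endothelial median for mettl3 morphant was 0.48 with total-count scaling, 0.20 with a filter of 100 counts and 0.20 with either column alone. For ythdf2 morphant these were 0.11, −0.054, and −0.11 to −0.031. No paired analysis was possible because endothelial columns were summed to 1 sample per group.

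Among named members, the RIP fold of PSMB10 reversed to −1.91 with total-count scaling and −0.15 with no filter, and that of PSMD1 to −0.75 with total-count scaling. Leaving out 1 library reversed PSMB2 in the inputs (−0.12 to 0.44), PSMB10 (−0.37 to 0.066) and PSMB9 (−0.76 to 0.19) in mettl3 morphant IP over input, and PSMC3 (−0.19 to 0.016), PSMD12 (−0.27 to 0.067) and psma6l (−2.65 to 0.55) in the change of IP over input. In the RIP it reversed PSMB10 (−0.17 to 0.031) and psmc1b (−2.19 to 0.53). Of the values of single members under alternatives, 316 kept direction and side of the threshold, 28 lost a call, 13 gained one and 14 reversed. RIP depth limits what can be said of members with few counts, such as PSMD10 and PSMB10.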
